A study of Danio rerio with 6 samples.

Results

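The *her* and *hey* genes of the zebrafish encode transcriptional repressors of the Hairy and Enhancer-of-split family, and many of them are direct targets of Notch signaling. The 10 genes described here were *her4.1*, *her4.2*, *her4.3*, *her4.4*, *her4.5*, *her15.1*, *her6*, *her9*, *hey1* and *hey2*, out of 32520 genes in the table of counts. They were found by symbol, ignoring case, for 8 of the 10, while *her6* and *her9* are listed under the human-style names HES1 and HES4, a pairing that rests on orthology. The set was chosen by their role in the pathway and with their levels and fold changes between genotypes in these same libraries already known, so the genotype values of the 10 genes are given as a description, without a test.

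In Notch signaling, a Delta or Jagged ligand on a cell binds a Notch receptor on its neighbor, and the γ-secretase complex then releases the intracellular domain of the receptor. This domain joins the DNA-binding protein Rbpj and a Mastermind coactivator in the nucleus and switches on *her* and *hey* genes. The repressors they encode hold back proneural genes and keep neural progenitors such as radial glia undifferentiated, while in blood vessels *hey2*, the gene of the *gridlock* mutant, takes part in the formation of the aorta.

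To ask how the transcriptome changes when miR-34a, a microRNA induced by p53, is lost, poly-A RNA of whole embryos at 72 hpf was sequenced from pools of 30. The wild-type and the *miR-34a-/-* group had 3 such pools each, with a library for every pool. Embryos of both genotypes were in the *casper* background, which lacks most pigment. The mutants carried a CRISPR/Cas9 deletion of *miR-34a* and came from a homozygous line kept apart from the wild-type stock, whose embryos were not their siblings, so the deletion and other differences between the lines cannot be told apart. In RNA from whole embryos, fewer cells of a type and less RNA per cell cannot be told apart either.

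Total counts ran from 10273343 to 16369150 per library, at which 3 counts correspond to between 0.186 and 0.293 CPM, the unit used for levels throughout (counts scaled to a common library total). No library held a count of MIR34A, the deleted gene, or of mir34b or MIR34C (0 counts, an upper limit of 3 per library), so the genotype labels could not be checked on it. *miR-34a-/-* replicate 1 stood apart from the other mutant libraries, at distances of 1.33 and 1.57 on the log2 scale over the 500 most variable genes, where replicates 2 and 3 lay 0.87 from each other. Its summed level of photoreceptor markers was 639 CPM, against 2198 and 2292 CPM in the other mutant libraries and 1090 to 2240 CPM in wild-type. Red blood cell markers summed to between 1234 and 1318 CPM in wild-type and between 3420 and 4276 CPM in *miR-34a-/-*, and 10 of the 11 tested were called higher. The part of these differences in the results that follow was not tested.

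Of the 10 genes, *her4.5* had the largest fitted difference between genotypes, 2.05-fold lower in *miR-34a-/-*, whereas the summed level of the her4 copies was nearly equal in both. Calls needed an adjusted p under 0.05 in the quasi-likelihood test of edgeR and a difference of more than 1.5-fold, which 362 of the 19240 genes tested met, or 1.88%, with 0.925% higher and 0.956% lower in *miR-34a-/-*. With no threshold on the fold, 2.6% had such a p. At 2-fold, 1.16% of all genes tested were called. The rule took in 1 of the 9 members tested, *her4.5*, and as the members were chosen with this comparison known, nothing is read from that count. Of the 9 members that passed the filter on low counts, 5 had a positive and 4 a negative log2 fold change, with a median of 0.06 against -0.01 over all genes tested. The median size of the difference was 0.12 on the log2 scale in the members and 0.15 in all genes tested. Values of the genotypes did not overlap for 2 of the 9, *her4.2* and *her4.5*, and for 21.2% of all genes tested.

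**Figure D1:**
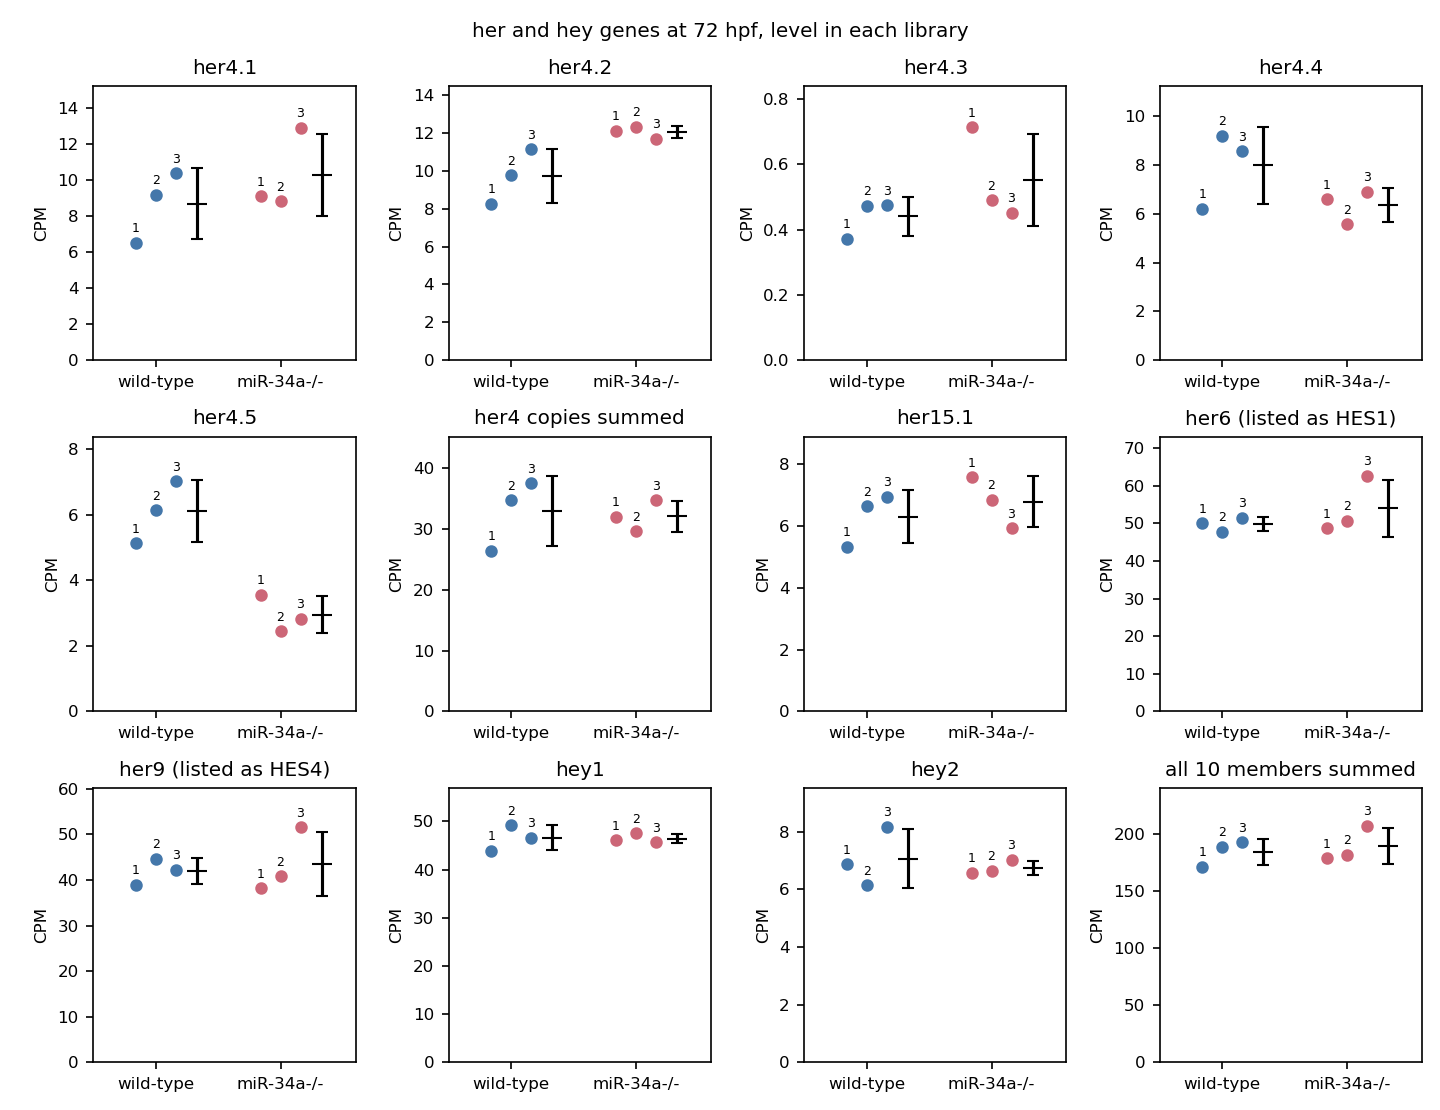
Level of each of the 10 genes, of the summed her4 copies and of all 10 genes summed, in CPM from 0 on the y axis, for wild-type (blue) and *miR-34a-/-* (red) libraries, numbered by replicate, with the mean and SD of the 3 libraries in black. Only *her4.2* and *her4.5* have genotypes that do not overlap, *her4.5* being between 2.44 and 3.56 CPM in the mutant and between 5.15 and 7.03 CPM in wild-type.

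The *her4* genes are related to mammalian *Hes5* and are expressed in neural progenitors, including radial glia, under the control of Notch. The 5 copies form a tandem cluster. In the RefSeq annotation of GRCz12tu, another assembly than that of the counts, they follow *her12* in the order *her4.2*, *her4.1*, *her4.3*, *her4.4* and *her4.5*, with the model of *her4.1* inside that of *her4.2*. How reads that match several copies, or both of those models, were assigned is not given in the sources used here, so the split of counts among the copies is uncertain. Names of the copies also differ between annotations, and the identifiers are therefore given.

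*her4.5* (ENSDARG00000056729) was at 5.15, 6.15 and 7.03 CPM in wild-type replicates 1, 2 and 3 and at 3.56, 2.44 and 2.84 CPM in *miR-34a-/-* replicates 1, 2 and 3. All 3 mutant libraries were below all 3 wild-type libraries. These levels rest on 83, 65 and 74 counts in wild-type and on 40, 25 and 44 counts in *miR-34a-/-*. The mean was 6.11 ± 0.94 CPM in wild-type and 2.95 ± 0.57 CPM in the mutant (SD, n = 3 per genotype), and the log2 fold change was -1.04 ± 0.22 (SE). The log2 fold change stayed between -1.17 and -0.93 when each library was left out in turn. Among those fits, *her4.5* was called only without *miR-34a-/-* replicate 1. These fits reuse the comparison that was known when *her4.5* was chosen, so nothing is read from them.

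*her4.4* (ENSDARG00000009822), its neighbor in the cluster, was at 6.20, 9.18 and 8.55 CPM in wild-type and at 6.59, 5.57 and 6.90 CPM in *miR-34a-/-*. Wild-type replicate 1 lay among the mutant values, and the other 2 wild-type libraries lay above all of them. The log2 fold change of *her4.4* was -0.31 ± 0.19.

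*her4.2* (ENSDARG00000094426), on the other side of the cluster, was at 8.24, 9.75 and 11.1 CPM in wild-type and at 12.1, 12.3 and 11.7 CPM in *miR-34a-/-*. The lowest mutant value was thus only slightly above the highest wild-type value. Means were 9.70 ± 1.44 and 12.0 ± 0.33 CPM, and the log2 fold change of *her4.2* was 0.32 ± 0.14, a difference opposite in sign to that of *her4.5*.

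*her4.1* (ENSDARG00000056732) was at 6.51, 9.18 and 10.4 CPM in wild-type and at 9.08, 8.80 and 12.9 CPM in *miR-34a-/-*. The genotypes overlapped, and the highest value came from *miR-34a-/-* replicate 3. The log2 fold change of *her4.1* was 0.27 ± 0.21. *her4.3* (ENSDARG00000070770) had 6, 5 and 5 counts in the wild-type libraries and 8, 5 and 7 in the mutant libraries, or 0.372 to 0.712 CPM. It was detected in every library, was close to the level of 3 counts, did not pass the filter and has no fitted fold change.

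Since reads may be divided among the copies of the cluster, the 5 were also counted as a single feature. The summed her4 level was 26.5, 34.7 and 37.5 CPM in wild-type and 32.0, 29.6 and 34.7 CPM in *miR-34a-/-*. All 3 mutant values lay within the wild-type range. Means were 32.9 ± 5.75 and 32.1 ± 2.56 CPM, and refitted with all other genes the sum had a log2 fold change of -0.02 ± 0.13.

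The distribution of the her4 counts over the copies was also compared, as a share of the 303 to 539 counts that the 5 copies had together in a library. *her4.5* held 19.4%, 17.7% and 18.7% of the her4 counts in wild-type and 11.1%, 8.25% and 8.16% in *miR-34a-/-*. The genotypes did not overlap, at 18.6% ± 0.87 against 9.18% ± 1.68, although the 95% Wilson intervals of the nearest libraries, 14.1% to 21.9% in wild-type replicate 2 and 8.27% to 14.8% in *miR-34a-/-* replicate 1, overlapped slightly. *her4.4* held 24.2% ± 1.95 of the her4 counts in wild-type and 19.7% ± 0.88 in the mutant, also without overlap between libraries, although the intervals of the nearest libraries, 18.9% to 27.2% in wild-type replicate 3 and 16.7% to 25.0% in *miR-34a-/-* replicate 1, overlapped widely.

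The shares of *her4.2* and *her4.1* were higher in *miR-34a-/-*. *her4.2* held 31.1%, 28.1% and 29.6% of the her4 counts in wild-type and 37.8%, 41.6% and 33.6% in the mutant. For *her4.1* the shares were 24.6%, 26.4% and 27.6% in wild-type and 28.3%, 29.7% and 37.1% in the mutant. Genotypes did not overlap for either copy, but for both the nearest libraries differed by less than their counting error. The intervals of the highest wild-type and lowest mutant share were 26.9% to 35.7% and 29.7% to 37.7% for *her4.2*, and 23.4% to 32.2% and 23.9% to 33.2% for *her4.1*. *her4.3* held between 1.27% and 2.22% in all libraries. As shares of a whole, these values are not independent of each other: a lower share of *her4.5* raises the shares of the other copies.

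**Figure D2:**
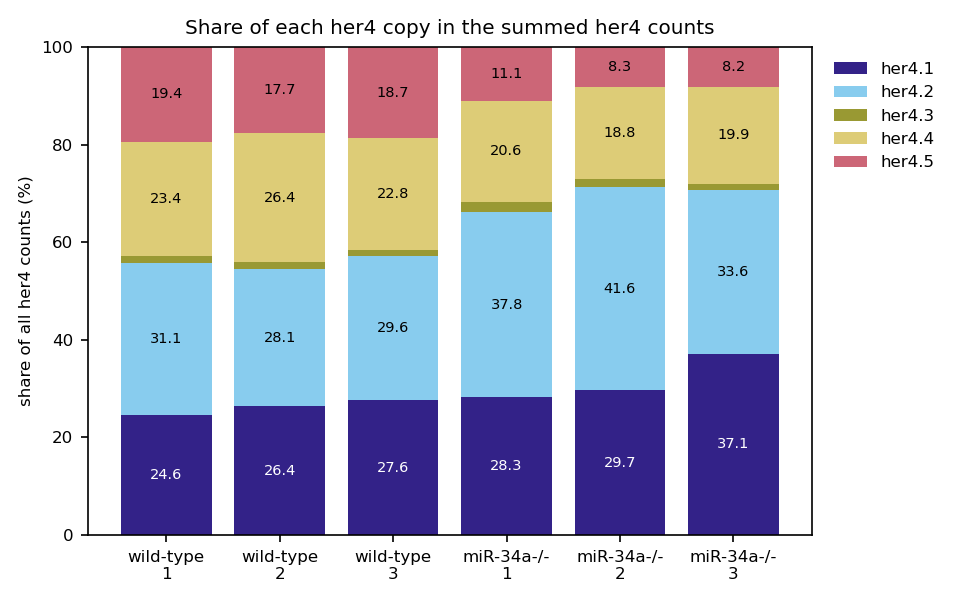
Stacked bars give the share of each her4 copy, in percent of the counts of all 5 copies, in each library. *her4.5* takes 17.7% to 19.4% in wild-type and 8.16% to 11.1% in *miR-34a-/-*, and *her4.2* takes 28.1% to 31.1% and 33.6% to 41.6%.

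The nearest matched and tested genes on both sides of the cluster were read from the same fit. *her12*, a further Notch-responsive repressor gene next to *her4.2*, had a log2 fold change of 0.10 ± 0.25 (edgeR adjusted p = 0.885). On the other side of *her4.5*, si:ch73-21g5.7 had -0.08 ± 0.26 (adjusted p = 0.906) and draxinb, which encodes an axon guidance protein, had 0.22 ± 0.22 (adjusted p = 0.671). None of these 3 neighbors passed the threshold.

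*her15.1* (ENSDARG00000054562), like *her4* a relative of mammalian *Hes5*, was at 5.33, 6.63 and 6.94 CPM in wild-type and at 7.57, 6.84 and 5.93 CPM in *miR-34a-/-*. The genotypes overlapped widely, with the lowest value in wild-type replicate 1 and the highest in *miR-34a-/-* replicate 1. The log2 fold change of *her15.1* was 0.11 ± 0.18. Its close copy *her15.2* lies next to it in the RefSeq order, and the pair summed to 9.24, 11.8 and 14.5 CPM in wild-type and 13.3, 12.1 and 11.3 CPM in the mutant. The mutant values of the pair lay within the wild-type range, and the log2 fold change of the pair was 0.05 ± 0.17.

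*her6* and *her9* are relatives of mammalian *Hes1* and *Hes4* and act in progenitors of the brain, among other tissues. *her6* (listed as HES1, ENSDARG00000006514) was at 50.1, 47.8 and 51.5 CPM in wild-type and at 48.7, 50.8 and 62.7 CPM in *miR-34a-/-*. *her9* (listed as HES4, ENSDARG00000056438) was at 38.9, 44.7 and 42.3 CPM in wild-type and at 38.2, 40.8 and 51.6 CPM in the mutant. For both genes *miR-34a-/-* replicate 3 was the highest library, and the other mutant values lay close to those of wild-type. The log2 fold change was 0.12 ± 0.10 for *her6* and 0.06 ± 0.11 for *her9*. Without *miR-34a-/-* replicate 3 these values were 0.00 and -0.08.

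*hey1* (ENSDARG00000070538), a repressor of the Hairy-related YRPW group, had the smallest fitted difference of the members. It was at 44.0, 49.2 and 46.7 CPM in wild-type and at 46.1, 47.5 and 45.6 CPM in *miR-34a-/-*. Means were 46.6 ± 2.63 and 46.4 ± 0.98 CPM, and the log2 fold change of *hey1* was 0.00 ± 0.07. All mutant values of *hey1* lay within the range of wild-type. *hey2* (ENSDARG00000013441) was at 6.88, 6.15 and 8.17 CPM in wild-type and at 6.59, 6.65 and 7.03 CPM in the mutant. Here too the mutant values lay inside the wild-type range, and the log2 fold change of *hey2* was -0.06 ± 0.16. Markers of endothelium, where *hey2* is active, summed to 365 to 372 CPM in wild-type and to 358 to 387 CPM in *miR-34a-/-*.

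Summed over all 10 genes, the level was 171.6, 189.2 and 193.1 CPM in wild-type and 179.2, 182.2 and 207.6 CPM in *miR-34a-/-*. The genotypes overlapped, and the log2 fold change of the sum was 0.04 ± 0.08.

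**Figure D3:**
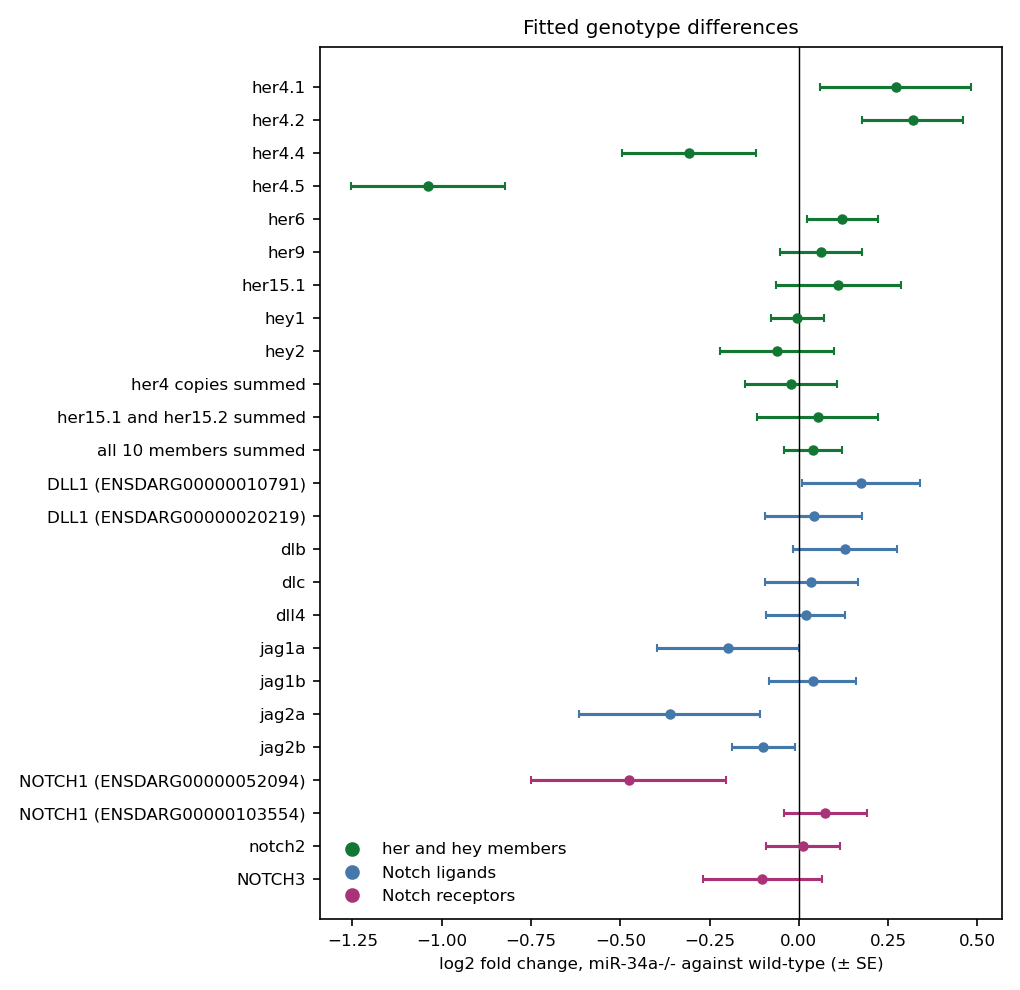
Fitted log2 fold change of *miR-34a-/-* against wild-type on the x axis, with the SE as a bar, for the 9 members tested and their sums (green), the Notch ligands (blue) and the receptors (purple). *her4.5*, at -1.04, is the lowest point, and the summed her4 copies lie at -0.02.

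Genes whose level varied most like the summed her4 copies were ranked by the Pearson correlation of log2(CPM + 1) over the 6 libraries, among the 17421 genes whose mean log2 CPM reached 1. The leading 5 were zufsp (r = 0.983), sec23a (r = 0.979), si:dkey-12j5.1 (r = 0.977), si:ch1073-170o4.1 (r = 0.972) and USF1 (r = 0.972). In each of these genes, as in the summed her4 copies, wild-type replicate 1 was the lowest library. These are the extremes of many genes over 6 libraries that share their depth and scaling, and they are given as a description.

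The rest of the Notch pathway was then read from the same fit in lists ordered by role, 72 gene identifiers in all, of which 66 were tested. Of these, 29 had a positive and 37 a negative log2 fold change, with a median of -0.04. A single gene, NUMB, was called, against 1.88% of all genes tested, and it was lower in *miR-34a-/-*. At an unadjusted p under 0.05 there were 8. The share of all genes at that p was not computed, so nothing is read from this count.

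Among the other *her*, *hes* and *hey* genes, which include further neural members such as *her2* and *her8a*, 11 of 16 were tested, 6 with a positive and 5 with a negative log2 fold change. None had an edgeR adjusted p under 0.05, and 0 had an unadjusted p under 0.05 in edgeR or in the DESeq2 Wald test. *her2*, which lies beside *her15.1*, was at 5.84 ± 0.36 and 6.92 ± 0.54 CPM, with a log2 fold change of 0.24 ± 0.16 (adjusted p = 0.495).

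Of the 9 Delta and Jagged ligand genes, all were tested, and 0 passed in edgeR or DESeq2, also at an unadjusted p under 0.05. The Delta genes were DLL1 (ENSDARG00000010791) at 46.9 ± 2.57 CPM in wild-type and 52.9 ± 15.3 in *miR-34a-/-*, DLL1 (ENSDARG00000020219) at 26.8 ± 2.47 and 27.5 ± 5.16, dlb at 48.4 ± 3.32 and 52.9 ± 12.9, dlc at 34.1 ± 4.12 and 34.8 ± 5.72, and dll4, an endothelial ligand, at 18.2 ± 0.80 and 18.4 ± 1.91. The Jagged genes were jag1a at 10.7 ± 1.29 and 9.33 ± 2.66 CPM, jag1b at 25.9 ± 3.87 and 26.7 ± 2.21, jag2a at 3.16 ± 0.46 and 2.48 ± 0.65, and jag2b at 40.4 ± 1.99 and 37.7 ± 3.60. Genotypes overlapped for every ligand. The higher mutant means of DLL1 (ENSDARG00000010791) and dlb came from *miR-34a-/-* replicate 1, at 70.4 and 67.7 CPM. In replicates 2 and 3, DLL1 was at 42.1 and 46.1 CPM and dlb at 45.1 and 45.9 CPM. Summed, the ligands were at 243 to 261 CPM in wild-type and at 314, 234 and 240 CPM in *miR-34a-/-* replicates 1, 2 and 3.

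All 4 receptor genes were tested, and 0 passed in edgeR or DESeq2, also at an unadjusted p under 0.05. NOTCH1 (ENSDARG00000103554) was at 70.6 ± 5.20 CPM in wild-type and 74.4 ± 12.4 in *miR-34a-/-*, and notch2 was at 94.7 ± 2.56 and 95.5 ± 15.3 CPM. NOTCH1 (ENSDARG00000052094) was at 25.4, 20.8 and 27.9 CPM in wild-type and at 27.4, 15.6 and 10.8 CPM in the mutant, and NOTCH3 at 123.5, 128.0 and 140.5 against 162.6, 108.2 and 94.9 CPM. For these receptors *miR-34a-/-* replicate 1 was high while the other mutant libraries were below all of wild-type, and the log2 fold changes were -0.48 ± 0.27 (adjusted p = 0.446) and -0.10 ± 0.17 (adjusted p = 0.814).

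All 20 genes of the list that processes ligands and receptors, which holds ubiquitin ligases, glycosyltransferases and proteases, were tested. Of these, 9 had a positive and 11 a negative log2 fold change, 0 were called in edgeR or in the DESeq2 Wald test, and 4 had an unadjusted p under 0.05 in each. No share of all genes at an unadjusted p was computed, so the count of 4 is not read further. NUMB (ENSDARG00000027279) encodes an adaptor protein that promotes the removal of Notch from the cell surface, and is thus an inhibitor of the pathway. It fell from 17.3, 16.9 and 16.6 CPM in wild-type to 10.1, 12.3 and 10.3 CPM in *miR-34a-/-*, with a log2 fold change of -0.64 ± 0.12 (adjusted p = 0.0212).

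The call of NUMB depended on the libraries used. When each library was left out in turn, its adjusted p ranged from 0.00471 to 0.11, while its log2 fold change stayed between -0.73 and -0.60. Of the 11 inhibitors and feedback genes tested, 3 had a positive and 8 a negative log2 fold change, and NUMB alone was called. An unadjusted p under 0.05 was seen for 4 in edgeR and 2 in the DESeq2 Wald test. Here too no share of all genes was computed for comparison. Of the 11 genes of the nuclear complex, among them RBPJ and MAML1, 0 passed in edgeR or DESeq2, also at an unadjusted p under 0.05.

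Without *miR-34a-/-* replicate 1, 6 of 67 pathway genes were called, or 8.96%, against 7.74% of all genes tested. They were NUMB, NOTCH1 (ENSDARG00000052094), NEURL1, a ubiquitin ligase gene acting on Delta, NRARP (ENSDARG00000018958), a feedback inhibitor, HES6 (ENSDARG00000007097), all lower, and HES3, which was higher. Over all genes tested in that fit, 945 were called lower and 559 higher. The pathway share was near that of all genes, so nothing is read from this count or its direction. HES3 had only 5, 6 and 6 counts in wild-type and 8, 10 and 21 in *miR-34a-/-*. With all 6 libraries it did not pass the filter on low counts, so nothing is read from its call. For NOTCH1 (ENSDARG00000052094) the log2 fold change was then -0.93 ± 0.15 (edgeR adjusted p = 0.000575). With all 6 libraries it was -0.48 ± 0.27 (edgeR adjusted p = 0.446), and the library left out was the highest mutant library for this gene. The other and more abundant NOTCH1 entry (ENSDARG00000103554) was not called. It was at 73.3 and 62.5 CPM in *miR-34a-/-* replicates 2 and 3, against 65.8 to 76.1 CPM in wild-type. The other NRARP entry (ENSDARG00000091419), at 58.7 CPM in wild-type, was not called, with a log2 fold change of 0.10 ± 0.07 over all libraries. Nor was the other HES6 entry (ENSDARG00000019335), at 47.1 CPM in wild-type and 0.02 ± 0.08 over all libraries.

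**Figure D4:**
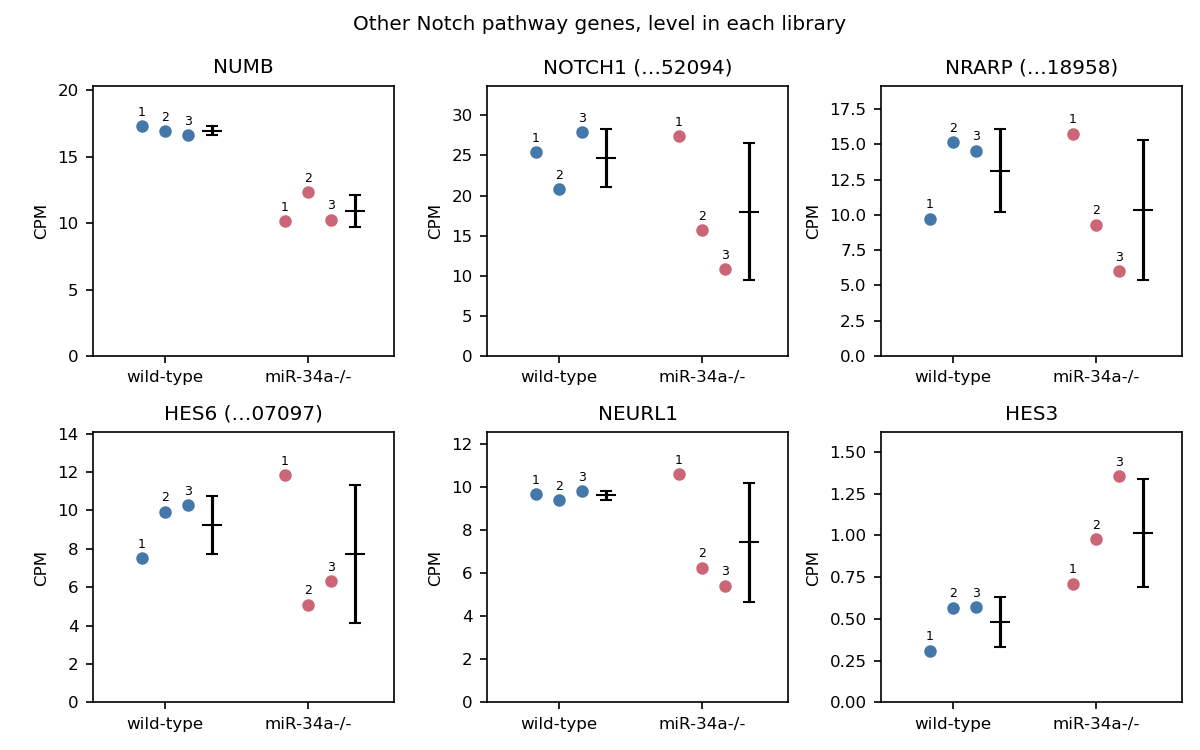
Level in CPM, from 0 on the y axis, of the 6 pathway genes called without *miR-34a-/-* replicate 1, in wild-type (blue) and *miR-34a-/-* (red) libraries numbered by replicate, with mean and SD in black. NUMB is below and HES3 above wild-type in all 3 mutant libraries, while in NOTCH1, NRARP, HES6 and NEURL1 *miR-34a-/-* replicate 1 is above the other 2.

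Proneural genes, some of which Her and Hey proteins repress, were read as a further list. Of 13 tested, 5 had a positive and 8 a negative log2 fold change, with a median of -0.07, and 0 passed in edgeR or DESeq2, also at an unadjusted p under 0.05. ascl1a, which drives neuronal commitment, was at 15.3 ± 0.86 CPM in wild-type and 17.3 ± 0.49 in *miR-34a-/-*, and neurog1 at 6.90 ± 0.90 and 6.14 ± 0.39.

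Markers of the cells in which the *her4* genes are active were examined beside these values. Radial glia and progenitor markers, 17 genes, summed to between 2416 and 2559 CPM in wild-type and between 2592 and 2919 CPM in *miR-34a-/-*, and 12 of the 17 had a positive log2 fold change, as had 9248 of all 19240 genes tested. Most of the difference between the mean sums, 2502 and 2766 CPM, came from FABP7 (ENSDARG00000007697), a fatty acid binding protein gene of radial glia. It was at 531 ± 33.1 CPM in wild-type and 711 ± 38.8 in *miR-34a-/-* (log2 fold change 0.42 ± 0.07, edgeR adjusted p = 0.0157) and was not called. The other FABP7 entry (ENSDARG00000034650) had 0.06 ± 0.18. GFAP was among the 5 with a negative log2 fold change, at -0.10 ± 0.06 (edgeR adjusted p = 0.494). Its level was 324 ± 3.79 CPM in wild-type and 303 ± 10.5 in *miR-34a-/-*, without overlap between genotypes. Genotypes did not overlap for 6 of the 17, GFAP among them and in both directions, against 21.2% of all genes tested. Nothing is read from that count. A single gene of the list was called, VIM (ENSDARG00000044501), a vimentin gene, which fell from 5.46 ± 0.78 to 0.90 ± 0.23 CPM (log2 fold change -2.63 ± 0.27, edgeR adjusted p = 0.000664). The other vimentin gene, VIM (ENSDARG00000010008), had a log2 fold change of -0.02. Neuronal markers summed to between 2137 and 2227 CPM in wild-type and between 2030 and 2286 CPM in *miR-34a-/-*. Proliferation markers summed to between 1319 and 1393 CPM in wild-type and to 1567, 1274 and 1324 CPM in *miR-34a-/-* replicates 1, 2 and 3. The part of these markers in the her4 values was not tested.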

How the data were processed

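Raw counts per Ensembl gene were deposited by the authors as 1 table with a column for each of the 6 libraries. Per the labels and the study's methods, poly-A RNA was sequenced, reads were trimmed with Trim Galore 0.4.4 and mapped with STAR 2.7.8 to the danRer11 genome. The counting mode, use of strand, treatment of multi-mapping reads and annotation release are not given in the sources used here. The labels do not say that the pools came from separate crosses, so p-values measure only the spread between these libraries.

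The analysis used edgeR 4.0.16 in R 4.3.3. Low genes were removed with filterByExpr, libraries scaled by TMM, and genotype tested with the quasi-likelihood test, with Benjamini-Hochberg adjustment over all 19240 genes tested. The SE is the log2 fold change divided by the root of the test's F. CPM values use the TMM-scaled library size as denominator. The common biological coefficient of variation was 10.9%. DESeq2 1.42.0 served as an alternative. The alternatives were DESeq2 size factors, other filters, the DESeq2 Wald test, a 2-fold threshold, the replicate number as a block, leaving out each library, and the median of the single her4 copies. The fit was also run on simulated data, in which no library stood apart as *miR-34a-/-* replicate 1 does here, and no result rests on that run. Wilson intervals of 95% and the level of 3 counts cover counting error only.

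The members and gene lists were chosen with earlier results of these data known. Named genes were all members, every ligand and receptor, pathway and proneural genes with an adjusted p under 0.05 (except 1 that is not reported here), called markers, and the 5 genes most like the her4 sum. Genes named outside this rule were chosen after their values were seen or for their position. They were her2, ascl1a, FABP7, GFAP, neurog1, cluster neighbors and the genes called without 1 library. A table of names paired 29201 of 32520 identifiers with a symbol, often human-style. In the lists reported here, ncstn, maml2 and dlk1 of the pathway, cx43 of radial glia and etv2 of endothelium were not matched. A symbol took in every identifier listed under it, so the 12 radial glia symbols matched gave 17 identifiers. Sequences were not used here.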

Additional observations from a re-analysis of the deposited data

How the results depend on the processing

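Over all genes, 362 were called. The count was 217 with a filter at a mean of 50 counts, 223 at 2-fold and between 180 and 1504 when each library was left out, the highest being without *miR-34a-/-* replicate 1 and the lowest without wild-type replicate 1. The 1 pathway gene called, NUMB, was called with DESeq2 size factors, with either other filter and with the DESeq2 Wald test. At 2-fold, 0 pathway genes were called. With a library left out, the rule for calls took in *her4.5* without *miR-34a-/-* replicate 1, and 0 members in every other such fit. It took in 1 member under the other settings but the block. Nothing is read from these counts, as the members were chosen with this comparison known. Between 0 and 6 pathway genes were called with a library left out, and without wild-type replicate 3 the pathway call was FURIN, not NUMB. FURIN is listed under more than 1 identifier. With all libraries the log2 fold change was 0.47 ± 0.13 for ENSDARG00000062909 and 0.06 ± 0.09 for ENSDARG00000070971. The adjusted p of NUMB and VIM (ENSDARG00000044501) was followed through the same settings after the data had been seen, and was under 0.05 in 6 of 11 and 10 of 10. The log2 fold change of the summed her4 copies ran from -0.17 to 0.08 over 12 alternatives. For each of the 9 members tested, the shift stayed within the spread of its replicates in all 11. Leaving out 1 of 3 libraries can hardly move a value further than that, so nothing is read from it.

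The labels do not say whether replicate numbers pair the libraries. Deviations of same-numbered libraries correlated at -0.07, 0.00 and -0.18, which with 3 libraries per genotype cannot exclude a pairing. With the replicate number as a block, 216 genes, 0 members and 0 pathway genes were called. The depth limits *her4.3*, at 5 to 8 counts per library.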

Other observations

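Genes beside the other members were read from the order of the RefSeq annotation (assembly GRCz12tu), counting only genes that were matched and tested, and those given here were chosen after their values were seen. plekhn1, which lies next to *her9*, rose in *miR-34a-/-* with a log2 fold change of 1.05 ± 0.17 (edgeR adjusted p = 0.0109). noc2l, further along on the same side and encoding a nucleolar protein, fell by 0.60 on the log2 scale (adjusted p = 0.0291). klhl17, which lies between plekhn1 and noc2l, had -0.07 ± 0.09 (adjusted p = 0.754). Over all genes tested, 2.6% had an adjusted p under 0.05, and no count of neighbors is set against that share. *her9* itself lay between plekhn1 and agrn, which had a log2 fold change of 0.09 ± 0.08 (adjusted p = 0.628). hpca, a neuronal calcium sensor gene 3 places from *hey1*, had -0.32 ± 0.07 (adjusted p = 0.0419) and did not reach 1.5-fold.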
